A study of Sus scrofa with 7 samples.

Results

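Transcription factors of the trophectoderm, the outer epithelium of the blastocyst that builds the fetal part of the placenta, were followed across 3 kinds of porcine stem cell lines. A list of 10 genes was taken (TFAP2A, TFAP2C, CDX2, GATA2, GATA3, EOMES, TEAD4, ELF5, HAND1 and ETS2), each a known regulator of this lineage in mammals. Of these, 8 were found by symbol among the 29510 genes listed in the expression tables. CDX2 stands in the tables under an older spelling and was matched by its Ensembl identifier. EOMES carries no symbol and was matched by its description, which 2 separate gene models share. These additional matches are described but not counted with the 8.

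RNA was sequenced from 3 lines of porcine extra-embryonic endoderm cells (pXEN cells), 2 lines of naïve-like embryonic stem cells (nESCs) and 2 lines of primed embryonic stem cells (pESCs), to ask how far the pXEN cells differ from pluripotent cells. There was 1 library per line. Passage numbers were 26, 26 and 23 for pXEN lines 1 to 3, 21 and 22 for nESC lines 1 and 2, and 20 for both pESC lines. The pXEN cells came from the inner cell mass of parthenogenetic blastocysts and were kept on mouse embryonic fibroblasts with human LIF, the GSK3 inhibitor CHIR99021, (S)-(+)-dimethindene maleate, minocycline, the ROCK inhibitor Y27632 and serum. The nESCs, also from the inner cell mass, were kept on mouse embryonic fibroblasts with FGF, human LIF, the MEK inhibitor PD0325901, CHIR99021, the TGFβ receptor inhibitor SB431542 and doxycycline. The pESCs were converted from nESCs according to their labels and were kept on mouse STO fibroblasts with activin A, bFGF, EGF and human LIF. The labels and the study's methods name no gene deletion or transgene in any group. Cell type and medium change together between all groups, and the feeder cells change with them for pESCs, so these cannot be told apart. Nothing in the labels says that lines of 1 type came from different embryos, so p-values measure the spread between these lines only.

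In the mouse blastocyst, TEAD4 works with the Hippo pathway coactivators YAP1 and WWTR1 in outer cells and switches on CDX2 and GATA3. TFAP2C, EOMES, ELF5 and ETS2 then help to keep trophoblast stem cells in their state, while GATA2, GATA3, TFAP2A and HAND1 act in later trophoblast and placental cells. Most of these factors are used again elsewhere, EOMES in the primitive streak and definitive endoderm, the AP-2 factors in ectoderm and neural crest, and HAND1 in heart and mesoderm. The extra-embryonic endoderm is the other extra-embryonic lineage of the blastocyst and is marked by GATA4, GATA6 and SOX17.

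The counts assigned to genes summed to 10408164 to 12995720 in the 7 libraries, and 3 counts, taken as the floor of detection, corresponded to 0.231 to 0.288 CPM (counts scaled by the library total). Floors and intervals of counts cover counting error only. Of 14 endoderm markers tested, 13 were higher in pXEN lines than in either ESC type, beside 18.1% of all genes. SOX2 stood at 114 ± 16.8 FPKM in nESCs and 150 ± 4.38 FPKM in pESCs (SD, n = 2 each). It stood at 0.659 ± 1.14 FPKM in pXEN cells (SD, n = 3), all of it from line 2 (0, 1.98 and 0 FPKM in lines 1 to 3). FPKM is a level scaled by gene length and library total. POU5F1, a defining pluripotency factor, did not pass 0.284 FPKM in any library, and whether its listed gene model on Sscrofa10.2 captures the gene was not tested, so the ESC label could not be checked by it. NANOG was at or below 0.148 FPKM in the nESC lines and between 4.50 and 15.5 FPKM in the pXEN lines. In the pESC lines it stood at 1.43 and 1.41 FPKM. Of 8 listed pluripotency genes tested, 5 were higher and 3 lower in pXEN cells than in nESCs, beside 28.3% and 26.2% of all genes. The 5 were NANOG, SALL4, UTF1, TDGF1 and OTX2. Against pESCs, 3 were higher and 5 lower in pXEN cells, beside 23.9% and 24.4% of all genes. The pXEN line 2 stood apart from lines 1 and 3, with 38 counts on chromosome Y against 1 and 3, and with a summed level of 249 FPKM over 10 listed fibroblast markers against 18.7 and 21.2. The collagens COL1A1 (16.1, 144 and 14.8 FPKM in lines 1 to 3), COL3A1 (0.426, 77.5 and 3.87) and COL1A2 (0.259, 21.1 and 0.482) made most of that sum. Line 2 was the highest pXEN line for 8 of the 10 markers, the exceptions being the factors TWIST1 (0, 0.192 and 0.201 FPKM) and PRRX1 (0.463, 0.397 and 0), and without the 3 collagens the sum was 1.97, 7.13 and 2.06 FPKM in lines 1 to 3. Of 14 endoderm markers line 2 was highest of the pXEN lines for 5 and lowest for 7. AFP (3.06, 176 and 1.69 FPKM) and TTR (6.49, 24.5 and 1.64) were among the former, and GATA4 (239, 188 and 239) and GATA6 (96.6, 49.2 and 90.2) among the latter.

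Of the 8 factors found by symbol, 6 had enough counts to be tested with edgeR's quasi-likelihood test, with a call at an adjusted p below 0.05 over 17447 genes. TFAP2C had the largest difference among them, at 38.7 ± 2.40 FPKM in pESCs (SD, n = 2) and without a count in pXEN cells. Between pXEN cells and nESCs, TEAD4 and ETS2 were higher in pXEN cells and TFAP2C and GATA2 were lower, which is 2 and 2 of 6 factors beside 28.3% and 26.2% of all genes tested. Between pXEN cells and pESCs, 4 of 6 factors (TFAP2A, TFAP2C, GATA2 and GATA3) were lower in pXEN cells, beside 24.4% of all genes. None of the 6 was higher in pXEN cells there, beside 23.9% of all genes, and the count was also 0 at an unadjusted p below 0.05 in edgeR and at an adjusted p below 0.05 in DESeq2 and in limma. Between the ESC types, 5 of 6 factors were higher in pESCs (all but GATA2), beside 19.0% of all genes. None was lower in pESCs, beside 13.3% of all genes, again with 0 factors at an unadjusted p below 0.05 in edgeR and 0 calls in DESeq2 and limma.

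The median log2 fold change of the 6 factors was 0.12 from nESCs to pXEN cells, −2.27 from pESCs to pXEN cells and 2.04 from nESCs to pESCs. The medians over all genes tested were 0.00, −0.01 and 0.01. Setting factors without a count in a group at their detection bound left the medians of the factors at these values. Each pair of comparisons shares libraries, so they are not independent of each other. In bulk RNA, fewer cells that express a gene and less RNA per cell cannot be told apart.

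**Figure D1:**
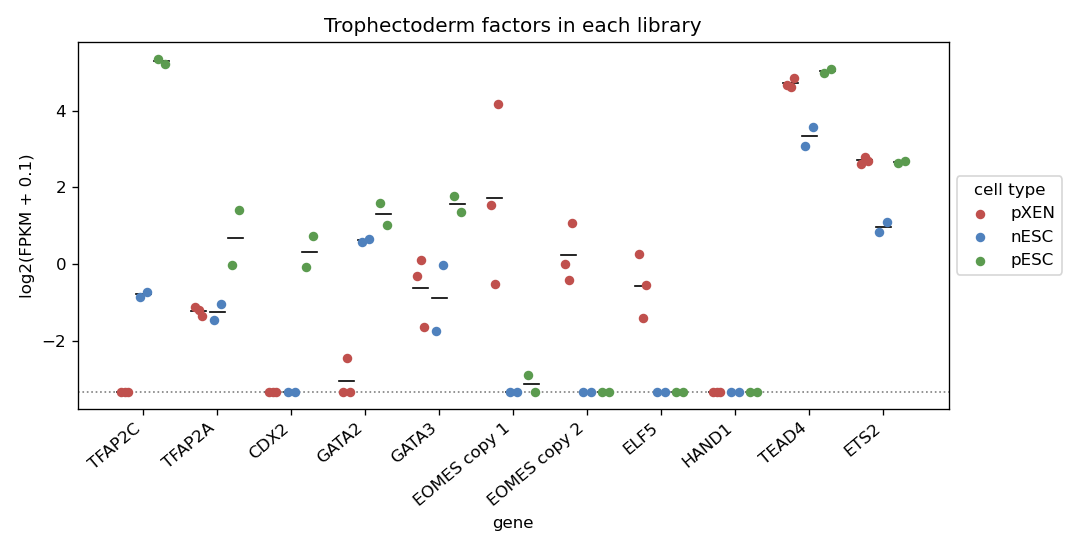
Level of each trophectoderm factor in every library, as log2(FPKM + 0.1) on the vertical axis. Each point is 1 library, the short lines are group means of the log values, and the dotted line marks 0 FPKM. TFAP2C runs from 0 FPKM in 3 pXEN libraries to 40.4 FPKM in a pESC library, while HAND1 is at 0 in all 7 libraries.

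TFAP2C (ENSSSCG00000007499) encodes AP-2γ, which works in trophoblast and also in germ cells and naive pluripotent cells. Its gene lies on chromosome 17, from 64328292 to 64338822 on the plus strand of Sscrofa10.2. It stood at 0 FPKM in all 3 pXEN lines, at 0.460 and 0.505 FPKM in the nESC lines and at 40.4 and 37.0 FPKM in the pESC lines. The groups did not overlap, and lines of the same type differed little beside the distance between types. In counts, these levels rest on 0 reads in each pXEN library, 17 and 18 in the nESC libraries, and 1553 and 1519 in the pESC libraries. The level in pXEN cells was at least 431-fold lower than in pESCs (edgeR, adjusted p = 2.73e-06) and at least 5.50-fold lower than in nESCs (adjusted p = 0.000162), with the floor of 3 counts per library as the bound. pESCs exceeded nESCs by 6.30 ± 0.20 on the log2 scale (SE, adjusted p = 1.81e-05), which is 78.9-fold.

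TFAP2A (ENSSSCG00000001036, chromosome 7, 7533348 to 7547226, minus strand) encodes AP-2α, a factor of trophoblast, epidermis and neural crest. Its levels were 0.361, 0.337 and 0.294 FPKM in pXEN lines 1 to 3, 0.267 and 0.388 FPKM in the nESC lines, and 0.897 and 2.54 FPKM in the pESC lines. Both pESC lines lay above all others, but line 2 was 2.75-fold above line 1 in CPM, while pXEN and nESC lines overlapped. The log2 fold change from pESCs to pXEN cells was −2.36 ± 0.51 (SE, edgeR adjusted p = 0.00592), and that from nESCs to pESCs was 2.37 ± 0.58 (adjusted p = 0.0165). Both calls were lost without pESC line 2 (adjusted p = 0.110 and 0.177), and that between the ESC types also without nESC line 1 or 2 (adjusted p = 0.110 and 0.0608). Between pXEN cells and nESCs the difference was 0.01, with a 95% interval from −1.29 to 1.31.

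TFAP2D, another listed AP-2 gene, ran differently from TFAP2C. It stood at 0 FPKM in pXEN cells, 21.6 ± 1.40 FPKM in nESCs and 10.8 ± 0.175 FPKM in pESCs (SD, n = 2 each), and was lower in pESCs than in nESCs by a log2 fold change of −1.02 ± 0.21 (SE, edgeR adjusted p = 0.0145). It was at least 110-fold lower in pXEN cells than in nESCs and at least 53.6-fold lower than in pESCs. Of the summed FPKM of the 3 listed AP-2 genes, TFAP2D thus held 96.4% in nESCs, whereas TFAP2C held 75.6% in pESCs. In pXEN cells the sum was 0.331 FPKM, all of it from TFAP2A.

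CDX2 (ENSSSCG00000009317, chromosome 11, 5113709 to 5119694, plus strand), the homeobox factor that holds the trophectoderm apart from the inner cell mass in mice, was detected in pESCs alone at this depth. No read was counted on it in the pXEN and nESC libraries, against 17 and 33 counts (0.855 and 1.55 FPKM) in the pESC lines. This is at least 6.91-fold lower in pXEN cells than in pESCs (edgeR, adjusted p = 0.00499) and at least 7.17-fold higher in pESCs than in nESCs (adjusted p = 0.0130). The first call was lost without pESC line 2 (adjusted p = 0.0608). The second was lost whenever 1 nESC or pESC line was left out (adjusted p from 0.0571 to 0.114). Of its relatives, CDX4 stood at 0 FPKM in pXEN cells, 0.251 FPKM in nESCs and 0.382 FPKM in pESCs.

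GATA2 (ENSSSCG00000011618, chromosome 13, 79606188 to 79613715, minus strand) drives trophoblast and blood genes. It was at or under the floor in pXEN cells, with 0, 3 and 0 counts in lines 1 to 3, against 53 and 54 counts in the nESC lines and 115 and 81 in the pESC lines. In FPKM these are 0, 0.0840 and 0, then 1.41 and 1.49, then 2.93 and 1.93. No pXEN line reached the lowest ESC line. Pooled over libraries, the share of counts was 55.5-fold higher in nESCs than in pXEN cells (95% exact counting interval 18.5 to 273; edgeR, adjusted p = 0.000587) and 90.8-fold higher in pESCs (30.6 to 444; adjusted p = 0.000359). All 3 pXEN counts came from line 2, the line with more fibroblast marker RNA, and without that line the adjusted p-values were 8.19e-05 and 5.11e-05. The pESC and nESC lines did not overlap either, but their log2 difference of 0.73 (95% interval −0.60 to 2.07) was not called (adjusted p = 0.373).

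GATA3 (ENSSSCG00000011125, chromosome 10, 69581080 to 69601347, minus strand), a target of TEAD4 in mouse trophectoderm, varied more among lines. It measured 0.711, 0.979 and 0.222 FPKM in pXEN lines 1 to 3, 0.201 and 0.886 FPKM in the nESC lines, and 3.35 and 2.46 FPKM in the pESC lines. pESC lines were the highest, and the pXEN and nESC lines spanned the same range, with a 4.19-fold and a 4.46-fold spread in CPM within each type. GATA3 was lower in pXEN cells than in pESCs, with a log2 fold change of −2.17 ± 0.66 (SE, edgeR adjusted p = 0.0272), and higher in pESCs than in nESCs by 2.40 ± 0.77 (adjusted p = 0.0453). The first call was lost without pXEN line 1 or 3 or either pESC line (adjusted p from 0.0538 to 0.136), and the second without pXEN line 1, nESC line 1 or either pESC line (0.0645 to 0.197). The 95% interval of the difference between pXEN cells and nESCs ran from −1.44 to 1.90.

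GATA4 and GATA6, which act in endoderm, were highest in pXEN cells, whereas GATA5 was low in all, at 0.256, 0 and 0.388 FPKM in pXEN cells, nESCs and pESCs. GATA4 stood at 222 ± 29.5 FPKM in pXEN cells (SD, n = 3), 0.0417 FPKM in nESCs and 0.0193 FPKM in pESCs, and GATA6 at 78.7 ± 25.8, 12.1 ± 0.00948 and 8.96 ± 1.24 FPKM. Both were higher in pXEN cells than in either ESC type (edgeR, adjusted p at most 0.000144 for GATA6). GATA2 and GATA3 held 16.5% and 19.8% of the summed GATA level in pESCs, 10.24% and 3.85% in nESCs, and 0.00928% and 0.211% in pXEN cells. GATA6 was the largest GATA transcript in both ESC types, with 85.6% of the sum in nESCs and 60.9% in pESCs.

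**Figure D2:**
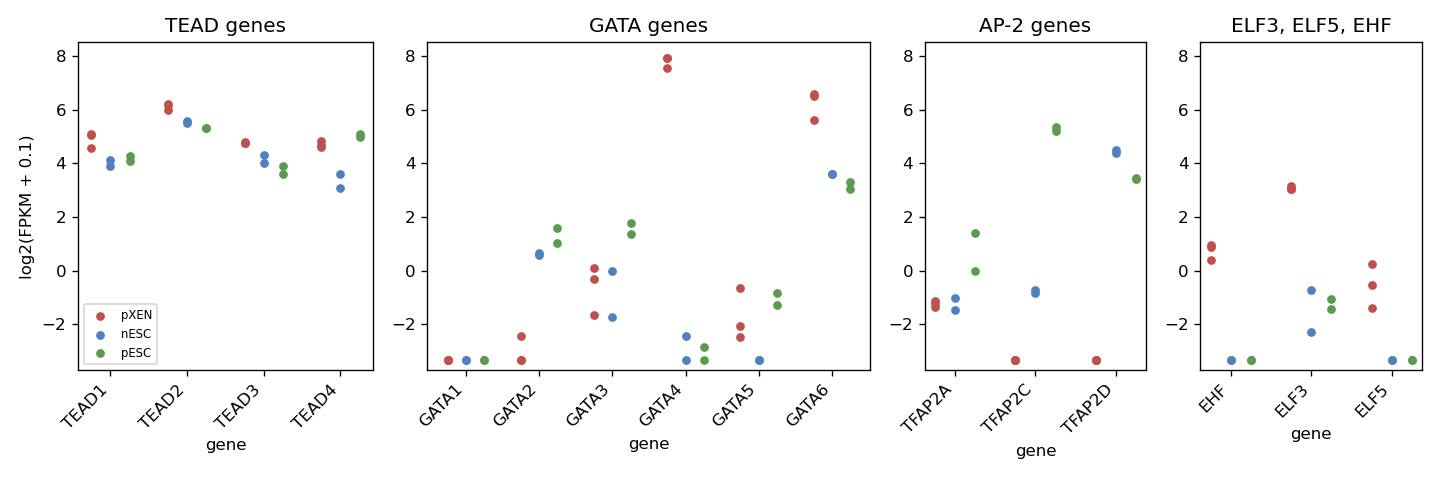
Levels of the TEAD, GATA, AP-2 and epithelial ELF genes in every library, as log2(FPKM + 0.1), where each point is 1 library coloured by cell type. GATA4 is near 222 FPKM in pXEN cells and near 0 in ESCs, TFAP2C is at 38.7 FPKM in pESCs, and all 4 TEAD genes are detected in every library.

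TEAD4 (ENSSSCG00000000736, chromosome 5, 69417021 to 69481222, minus strand), the DNA-binding partner of YAP1 and WWTR1, was the most abundant factor in pXEN cells and in nESCs. Its levels were 25.2, 24.5 and 28.5 FPKM in pXEN lines 1 to 3, 8.39 and 11.9 FPKM in the nESC lines, and 31.3 and 33.5 FPKM in the pESC lines. The nESC lines lay below all others, and the pESC lines lay just above the pXEN lines. TEAD4 was higher in pXEN cells than in nESCs by 1.36 ± 0.17 on the log2 scale (SE, edgeR adjusted p = 0.000293) and higher in pESCs than in nESCs by 1.66 ± 0.18 (adjusted p = 0.000413). The difference between pXEN cells and pESCs, −0.31 with a 95% interval from −0.67 to 0.05, was not called (adjusted p = 0.141). A listed gene on the opposite strand overlaps TEAD4 and had between 2 and 32 counts per library, beside 304 to 1350 counts on TEAD4.

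Its relatives were highest in pXEN cells. TEAD1 stood at 30.1 ± 5.81, 16.1 ± 1.68 and 17.99 ± 1.64 FPKM in pXEN cells, nESCs and pESCs (SD, n = 3, 2 and 2). TEAD2 had 69.4 ± 6.02, 46.2 ± 1.22 and 39.6 ± 0.0300 FPKM and TEAD3 had 27.1 ± 0.466, 17.7 ± 2.68 and 13.4 ± 1.89 FPKM. All 3 were higher in pXEN cells than in either ESC type (edgeR, adjusted p from 0.000664 to 0.0120), and none was called between the ESC types. TEAD4 accordingly made up 17.1% of the summed TEAD level in pXEN cells, 11.2% in nESCs and 31.3% in pESCs.

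Of 15 tested genes of the Hippo pathway and the partners and targets of TEAD factors, 7 were higher and 2 lower in pXEN cells than in nESCs, with a median log2 fold change of 0.34. These are 46.7% and 13.3% of the list, beside 28.3% and 26.2% of all genes. In the pXEN cells 7 exceeded and 1 fell short of the pESC level (46.7% and 6.67%, beside 23.9% and 24.4% of all genes; median 0.25). These 8 calls became 5 without pESC line 1, 4 without pESC line 2 and 5 with the replicate number as a block. Between the ESC types 4 were higher and 2 lower in pESCs (median 0.16), and these shares of 26.7% and 13.3% are near the 19.0% and 13.3% of all genes. The 6 calls became 3 without nESC line 1 and 2 without either pESC line. WWTR1, which encodes the coactivator TAZ, stood at 124 ± 30.4 FPKM in pXEN cells, 6.79 ± 0.505 FPKM in nESCs and 10.9 ± 0.374 FPKM in pESCs, a log2 difference of 4.18 ± 0.24 from nESCs and 3.51 ± 0.23 from pESCs (SE, edgeR adjusted p = 6.35e-06 and 1.93e-05). The YAP1 level was 47.6 ± 3.82, 19.3 ± 0.663 and 30.4 ± 1.97 FPKM in the same order, with a log2 difference of 0.65 ± 0.11 between pXEN cells and pESCs (SE, adjusted p = 0.00187). CYR61, a classic target of YAP1 and TAZ, stood at 165 ± 34.7 FPKM in pXEN cells, 11.9 ± 9.11 in nESCs and 13.5 ± 1.45 in pESCs. The repressive cofactor VGLL4 went the other way from nESCs to pXEN cells, from 96.7 ± 8.44 to 59.7 ± 7.95 FPKM (log2 fold change −0.70 ± 0.14, SE, adjusted p = 0.00389). WWTR1, YAP1 and CYR61 thus had their highest means in pXEN cells, whereas the TEAD4 mean there lay between those of both ESC types.

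EOMES was found in pXEN cells. Its first gene model (ENSSSCG00000011219, chromosome 13, 15916814 to 15921894, minus strand) had 60, 15 and 423 counts in pXEN lines 1 to 3, which are 2.81, 0.602 and 17.8 FPKM. It had no count in the nESC lines and 1 and 0 counts in the pESC lines. All 3 pXEN lines lay above all ESC lines, but they differed among themselves by up to 31.1-fold in CPM, with line 3 highest and line 2 lowest. The level in pXEN cells was at least 52.8-fold higher than in nESCs (edgeR, adjusted p = 0.0135). Against pESCs the pooled ratio was 358 (95% exact counting interval 64.0 to 14180, from 1 count; adjusted p = 0.0169). Line 3 carries the size of these differences. Without it the level was at least 12.5-fold higher than in nESCs and the pooled ratio to pESCs was 80.7 (14.1 to 3230), with adjusted p-values of 0.00794 and 0.0117. The calls were lost without either nESC line (0.0644 and 0.0609) or either pESC line (0.0912 and 0.112), and under limma on log2(FPKM + 1) (0.0661 and 0.0748).

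The second gene model (ENSSSCG00000022626, chromosome 13, 15847280 to 15852366, minus strand) lies 64448 bases away and had 19, 16 and 47 counts in the pXEN lines and none in the 4 ESC lines. In FPKM the pXEN levels were 0.913, 0.658 and 2.02, in the same order of lines as the first model. They were at least 8.65-fold higher than in nESCs and at least 9.44-fold higher than in pESCs (edgeR, adjusted p = 0.00390 and 0.00425). Without line 3 these bounds were 5.57-fold and 6.07-fold, with adjusted p = 0.00711 and 0.00783. The ratio of the first to the second model's counts was 3.16, 0.938 and 9 in pXEN lines 1, 2 and 3. Both models share a description, so reads from 1 gene may be split between them and the level of each is uncertain. Summed over both, the pXEN lines had 7.59, 2.46 and 41.2 CPM.

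EOMES also marks the primitive streak and mesendoderm, so genes of those cells were read beside it. MIXL1, a homeobox factor of mesendoderm, stood at 25.7, 11.1 and 24.9 FPKM in pXEN lines 1 to 3 and at 0 FPKM in all ESC lines, and LHX1 stood at 35.9, 12.9 and 43.2 FPKM against at most 0.548 FPKM in ESC lines. Line 2 was lowest for both, as it was for EOMES, but over the 9 listed streak and mesoderm genes it was lowest of the pXEN lines for 5 and highest for 4, MESP1 among the latter (0.889, 3.39 and 1.52 FPKM). Over the same 9 genes the summed level was 65.7 to 135 FPKM in pXEN lines, 7.48 to 7.80 in nESC lines and 6.87 to 10.5 in pESC lines. Of 8 tested, 4 were higher and 1 lower in pXEN cells than in nESCs (median log2 fold change 2.24), beside 28.3% and 26.2% of all genes, and 4 were higher and 0 lower than in pESCs (median 1.92), beside 23.9% and 24.4%. BMP4 and PDGFRA are among them, and PDGFRA is an endoderm marker as well. Whether cells of that kind, or the extra-embryonic endoderm cells themselves, account for the EOMES level was not tested.

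Genes on chromosome 13 were raised together in pXEN lines 1 and 3, by a median of 0.38 and 0.41 on the log2 scale relative to the mean of the 7 libraries, but not in line 2 (−0.06), and this chromosome holds GATA2 and both EOMES models. With this shift taken out of each library, no call of a trophectoderm factor changed. Its part in the spread of EOMES among the pXEN lines was not tested.

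**Figure D3:**
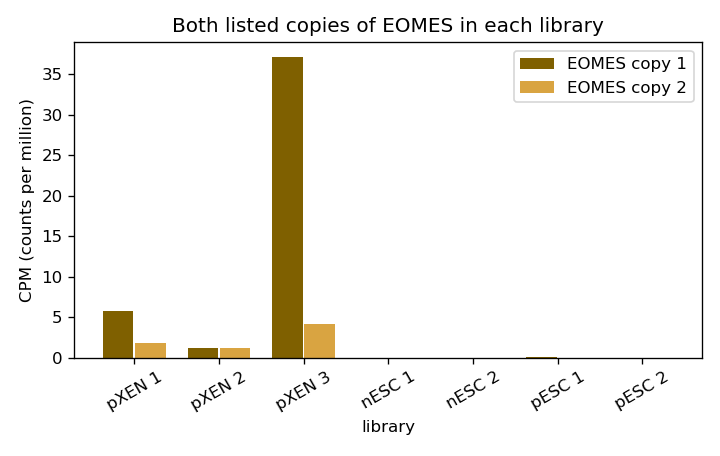
CPM of both gene models described as EOMES, in each of the 7 libraries on a linear axis that starts at 0. The bars of pXEN line 3 are the tallest, those of line 2 are the lowest of the pXEN lines, and the ESC lines have at most 1 count.

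ELF5 (ENSSSCG00000013301, chromosome 2, 28824232 to 28852498, plus strand), an ETS-family gatekeeper of mouse trophoblast stem cells, was seen in pXEN cells at low level. It had 10, 3 and 6 counts in pXEN lines 1 to 3 (1.10, 0.282 and 0.590 FPKM) and none in the ESC lines. The mean in pXEN cells was at least 2.07-fold higher than in nESCs and at least 2.26-fold higher than in pESCs. ELF5 did not pass the filter on low counts, and a fit of 23576 genes without that filter gave adjusted p-values of 0.0375 and 0.0379 (edgeR). Its epithelial relatives had the same order, with ELF3 at 8.42 ± 0.388, 0.304 ± 0.282 and 0.330 ± 0.0815 FPKM in pXEN cells, nESCs and pESCs (SD, n = 3, 2 and 2), and EHF at 1.60 ± 0.333 FPKM in pXEN cells and 0 FPKM in both ESC types.

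ETS2 (ENSSSCG00000012068, scaffold GL894492.1, 7767 to 21848, minus strand), a signal-dependent factor needed for trophoblast in mice, was lowest in nESCs. It measured 6.02, 6.83 and 6.40 FPKM in pXEN lines 1 to 3, 1.71 and 2.07 FPKM in the nESC lines, and 6.12 and 6.40 FPKM in the pESC lines. The nESC lines lay apart below, and pXEN and pESC lines overlapped. ETS2 was higher than in nESCs by 1.76 ± 0.25 in pXEN cells and by 1.71 ± 0.26 in pESCs on the log2 scale (SE, edgeR adjusted p = 0.000579 and 0.00211). Between pXEN cells and pESCs the difference was 0.05, with a 95% interval from −0.47 to 0.56. ETS1 had a like order, at 4.29 ± 2.11, 0.577 ± 0.178 and 4.30 ± 0.928 FPKM.

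HAND1 (ENSSSCG00000017070, chromosome 16, 74589674 to 74591889, plus strand), a factor of differentiating trophoblast and of mesoderm, had no count in any of the 7 libraries. At this depth its level was below 0.231 to 0.288 CPM, depending on the library. Its relative HAND2 was low throughout, at 0.121 FPKM in pXEN cells, 0.802 FPKM in nESCs and 0.0648 FPKM in pESCs. Of 10 relatives of the factors tested in all, 8 were higher and 1 lower in pXEN cells than in nESCs (median log2 fold change 1.80), 7 were higher and 1 lower than in pESCs (median 0.94), and 1 was higher and 1 lower in pESCs than in nESCs (median −0.32). Over all genes the shares higher and lower were 28.3% and 26.2%, 23.9% and 24.4%, and 19.0% and 13.3% in these comparisons. The 2 calls between the ESC types became 5 without pXEN line 2, 0 without nESC line 1 and 1 without any other single ESC line.

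**Figure D4:**
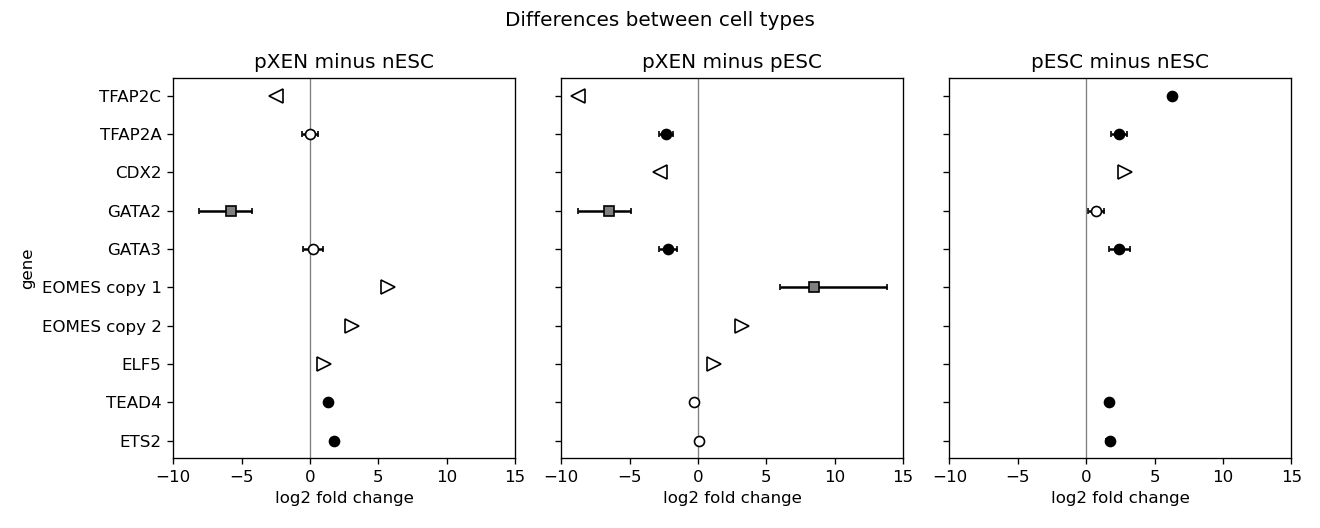
Log2 fold changes of 10 gene models in the 3 comparisons. Circles show edgeR estimates with standard errors, filled where the adjusted p is below 0.05, and grey squares show pooled count ratios with 95% counting intervals where a group had 1 to 3 counts. Triangles show detection bounds where a group had no count and point away from 0. TFAP2C lies left of 0 in both pXEN comparisons and at 6.30 between the ESC types, while both EOMES models and ELF5 lie right of 0 in the pXEN comparisons.

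By level, the order of the factors differed between the cell types. In pXEN cells TEAD4 came first at 26.1 ± 2.15 FPKM, then the first EOMES model at 7.06 ± 9.34 and ETS2 at 6.42 ± 0.407 FPKM, which do not differ beyond their spread (SD, n = 3). The second EOMES model at 1.20 ± 0.726, ELF5 at 0.657 ± 0.412, GATA3 at 0.637 ± 0.384 and TFAP2A at 0.331 ± 0.0340 FPKM followed, neighbours again within their spread. In pESCs TFAP2C came first at 38.7 ± 2.40 FPKM, percentile 87.2 of the genes tested, followed by TEAD4 at 32.4 ± 1.56 and ETS2 at 6.26 ± 0.195 FPKM (SD, n = 2). GATA3, GATA2, TFAP2A and CDX2 lay between 1.20 and 2.91 FPKM there, and no neighbours among them differed beyond their spread. In nESCs TEAD4 at 10.1 ± 2.47 FPKM was followed by ETS2 at 1.89 ± 0.254 and GATA2 at 1.45 ± 0.0573 FPKM, and the remaining factors were at or below 0.543 FPKM (SD, n = 2). Summed over the 8 factors found by symbol, the level was 33.0 to 36.01 FPKM in pXEN lines, 12.4 to 17.2 in nESC lines and 83.9 to 85.0 in pESC lines.

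Other regulators of trophoblast were read from a list of 24 symbols, of which 16 were tested. In pXEN cells 10 were higher and 4 lower than in nESCs (median log2 fold change 1.43), and 7 were higher and 6 lower than in pESCs (median 0.34). In pESCs 7 were higher and 2 lower than in nESCs (median 1.24, or 0.92 with undetected genes at their bound). As shares of the list, 62.5% and 25% were higher and lower in the first comparison, beside 28.3% and 26.2% of all genes. In the second these were 43.8% and 37.5%, beside 23.9% and 24.4%, and in the last 43.8% and 12.5%, beside 19.0% and 13.3%. The lower shares against nESCs were thus near those of all genes. KLF5, which supports the trophectoderm and pluripotent cells, stood at 35.8 ± 4.76 FPKM in pXEN cells, 5.15 ± 0.668 in nESCs and 0.573 ± 0.0267 in pESCs, a log2 difference of 5.94 ± 0.30 between pXEN cells and pESCs (SE, edgeR adjusted p = 6.35e-06). ARID3A, a chromatin-binding factor of trophectoderm, was at 64.8 ± 4.05, 16.0 ± 2.41 and 34.1 ± 0.211 FPKM in the same order. ESRRB, an orphan receptor of trophoblast stem cells and naive pluripotent cells, had the same order of groups as TFAP2C, at 0 FPKM in pXEN cells, 0.9905 ± 0.268 in nESCs and 37.2 ± 0.747 in pESCs. It was at least 247-fold lower in pXEN cells than in pESCs (adjusted p = 8.00e-06) and higher in pESCs than in nESCs by 5.21 ± 0.25 (SE, adjusted p = 7.67e-05). DLX3, a homeobox factor of placenta and epidermis, had no count outside the pESC lines, where it stood at 5.36 and 4.96 FPKM.

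Products of trophoblast and other epithelia were mostly higher in pXEN cells. Of 17 tested, 14 were higher and 1 lower than in nESCs (median log2 fold change 3.00), and 9 were higher and 2 lower than in pESCs (median 1.11). Between the ESC types, 10 were higher and 1 lower in pESCs (median 2.28). Genes were matched by symbol alone, and PAG1, on chromosome 4, is among the 14 and the 10 that were higher. Whether that gene is a trophoblast product was not tested. The higher shares, 82.4%, 52.9% and 58.8% of the list, stand beside 28.3%, 23.9% and 19.0% of all genes, and the lower shares, 5.88%, 11.8% and 5.88%, beside 26.2%, 24.4% and 13.3%. The keratin KRT8 stood at 7925 ± 1083 FPKM in pXEN cells, 12.03 ± 9.52 in nESCs and 2066 ± 245 in pESCs, and its partner KRT18 at 2883 ± 418, 0.331 ± 0.303 and 751 ± 61.4 FPKM. For KRT8 the log2 difference between pXEN cells and pESCs was 1.95 ± 0.42 (SE, edgeR adjusted p = 0.00609). The glucose transporter SLC2A1 was at 311 ± 16.3, 7.86 ± 0.965 and 81.5 ± 11.99 FPKM. These keratins and transporters are made by endoderm epithelia as well. CYP19A1, the aromatase that makes oestrogen in the pig conceptus, was at 0 FPKM in pXEN cells, 3.84 FPKM in nESCs and 0.0262 FPKM in pESCs.

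**Figure D5:**
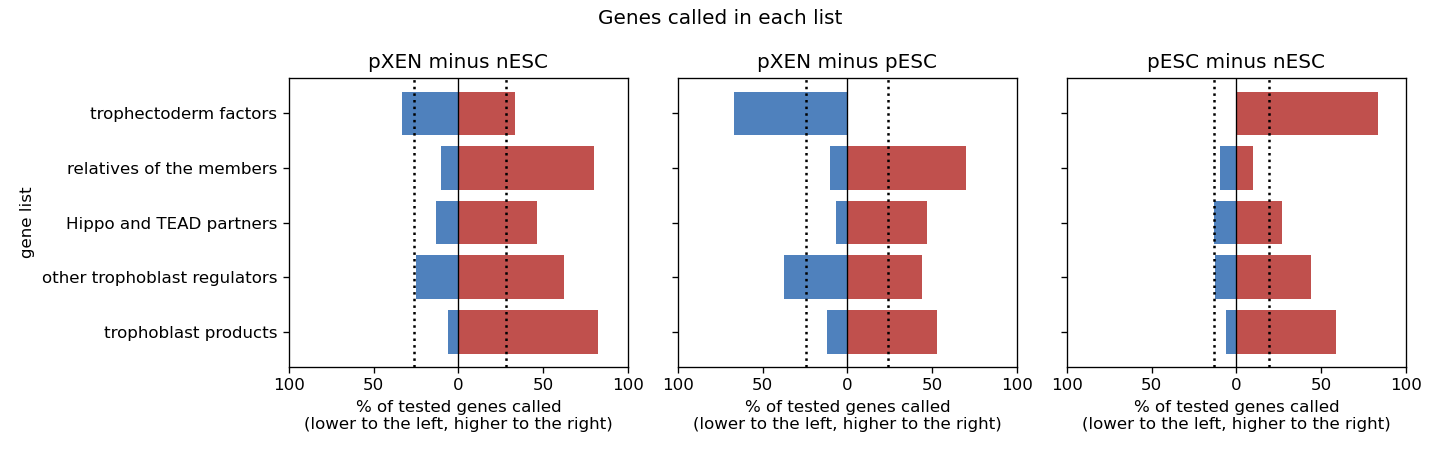
Share of the tested genes of each list called higher (red, to the right) or lower (blue, to the left) in the 3 comparisons, in percent, with dotted lines at the shares over all 17447 genes tested. The bars rest on 6, 10, 15, 16 and 17 genes from top to bottom. The 6 trophectoderm factors, which leave out CDX2 and EOMES, have no bar to the right between pXEN cells and pESCs. The relatives and the trophoblast products have their longer bars there.

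The AP-2 factors, GATA3 and DLX3 are also used in surface ectoderm and neural crest, whose markers were read beside them. The summed level of 11 listed markers was 10.96 to 14.4 FPKM in pXEN lines, 20.9 to 39.1 in nESC lines and 119 to 146 in pESC lines. ZIC1, a factor of the neural plate border, stood at 0 FPKM in pXEN cells, 23.8 ± 13.8 in nESCs and 100.3 ± 18.1 in pESCs (SD, n = 3, 2 and 2), and MSX1 at 0.466 ± 0.210, 2.89 ± 0.0697 and 21.6 ± 1.11 FPKM. Without these 2 genes the sum was 10.3 to 14.1 FPKM in pXEN lines, 2.66 to 4.08 in nESC lines and 10.3 in both pESC lines. SOX9, a factor of neural crest and of many epithelia, was highest in pXEN lines, at 9.85, 12.6 and 10.7 FPKM against 2.42 and 3.87 in nESC lines and 3.60 and 3.54 in pESC lines, with log2 fold changes of 1.81 ± 0.22 and 1.64 ± 0.22 (SE, edgeR adjusted p = 0.000307 and 0.000607). KRT5, an epidermal keratin, stayed at or below 0.160 FPKM in every library. Of 5 tested, 3 were higher and 0 lower in pESCs than in nESCs (median log2 fold change 2.06), beside 19.0% and 13.3% of all genes. In pXEN cells 1 was higher and 3 were lower than in pESCs (median −5.53), beside 23.9% and 24.4%. DLX3 is itself on this list and is among the 3 in each comparison. Their part in the higher AP-2 and GATA3 levels of pESCs was not tested.

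Fibroblast markers, which mark the kind of cell used as feeders, summed to 112 to 158 FPKM in pESC lines, 39.6 to 41.5 in nESC lines and 18.7 to 249 in pXEN lines over 10 genes. The feeders were mouse cells and reads were counted on the pig genome, so these sums do not measure feeder cells directly. Without COL1A1, COL1A2 and COL3A1 the sums were 89.9 to 127, 33.3 to 34.0 and 1.97 to 7.13 FPKM in the same order. TWIST1 stood at 26.2 ± 2.79 FPKM in nESCs (SD, n = 2), and S100A4 at 60.8 ± 9.57 FPKM in pESCs (SD, n = 2). Of 9 tested, 2 were higher and 1 lower in pESCs than in nESCs (median log2 fold change 1.90), and these shares of 22.2% and 11.1% are near the 19.0% and 13.3% of all genes. Without pXEN line 2 these 3 calls became 5. Between pXEN cells and nESCs, 3 were higher and 3 lower in pXEN cells (33.3% each, beside 28.3% and 26.2%; median 0.30). In pXEN cells 1 was higher and 4 were lower than in pESCs (11.1% and 44.4%, beside 23.9% and 24.4%; median −1.31), and these 5 calls became 3 without any single ESC line. Of the pXEN lines, line 2, the highest by this sum with or without the collagens, had the highest FPKM of GATA2, GATA3 and ETS2 and the lowest of TEAD4, ELF5 and both EOMES models, while TFAP2C, CDX2 and HAND1 had no count in any pXEN line. The part of fibroblast RNA in the levels of the factors was not tested.

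The genes whose levels ran most like a factor were named for TFAP2C and TEAD4, which had a mean of at least 100 counts. By Pearson's r of log2(CPM + 1) over the 7 libraries and 7606 genes, the closest to TFAP2C were SH2D6 (r = 0.9994), CH242-402I11.1 (0.9984) and CDK2AP2 (0.9982), and 21 genes had r above 0.99. SH2D6 stood at 0.0198, 0.864 and 48.3 FPKM in pXEN cells, nESCs and pESCs. The closest to TEAD4 were the alkaline phosphatase gene ALPL (0.9919), BNIP3L (0.9913) and PTPRU (0.9879), and 2 genes passed 0.99. ALPL stood at 54.3, 4.33 and 152.7 FPKM. With 3 groups and 7 libraries that all genes share, high correlations arise for any gene with the same order of groups.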

How the data were processed

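RNA from 7 lines (3 pXEN, 2 naïve-like and 2 primed ESC) was made by the authors into directional, rRNA-depleted libraries and sequenced on NovaSeq. Per the submitters' processing notes, HISAT2 2.0.5, featureCounts 1.5.0-p3, edgeR 3.22.5 and Sscrofa10.2 were used. The strand setting of the counting is not given in the sources used here. The authors deposited unnormalized counts per gene and FPKM values, in which counts are scaled by gene length and library total. Groups were taken from the labels.

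Counts were tested with edgeR 4.0.16 (R 4.3.3; TMM scaling, filterByExpr, quasi-likelihood test, 1 model of 7 libraries, Benjamini-Hochberg adjustment). Standard errors were derived from the F statistic. DESeq2 1.42.0, limma 3.58.1 on log2(FPKM + 0.1) and log2(FPKM + 1), other scalings and filters, and leaving out each line served as alternatives, 16 in all. The biological coefficient of variation was 0.223.

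Libraries of 1 type differed by more than counting noise (chi-square per degree of freedom from 6.58 to 39.5), so none was merged. The members and lists were chosen with earlier results of these data known. All 10 factors are named. Of each other list, up to 4 called genes with the highest mean FPKM per comparison could be named. Where that rule did not name them, SOX2, POU5F1, NANOG, TFAP2D, TEAD3, the ELF, ETS, CDX and HAND relatives, DLX3, MESP1, CYP19A1, PAG1, KRT5, SOX9, GATA5, AFP, TTR, COL1A2, TWIST1 and PRRX1 were added after their values were seen. No column was left without a sample. No sequence is shown.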

Additional observations from a re-analysis of the deposited data

How the results depend on the processing

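Of 96 counts of factors called under an alternative, 87 stayed within 1.5 times the value reported and 9 did not. With at least 10 counts required in every library, 0 factors were lower in pXEN cells than in nESCs, 1 was lower than in pESCs, and 3 were higher in pESCs than in nESCs, since this filter removes factors that are at or near 0 in a group. Without any filter, 1 factor (ELF5) was higher in pXEN cells than in pESCs. Leaving out each line in turn gave 0 to 1 factors higher and 2 to 4 lower in pXEN cells than in pESCs, and 3 to 5 higher in pESCs than in nESCs. Where this left 1 line in a group, that line was assumed to vary like the others. The cause was not tested. Of 369 log2 fold changes of single factors, 336 kept direction and side of the threshold, 24 were no longer called and 9 changed sign. The sign changes concern differences that were not called. TFAP2A from nESCs to pXEN cells was −0.16 with upper-quartile scaling, 0.00 with only the groups compared, and −0.24 to 0.30 when lines were left out. GATA3 was −0.49 to 1.65 there, and ETS2 from pESCs to pXEN cells was −0.04 with upper-quartile scaling and −0.01 to 0.09 when lines were left out. Upper-quartile scaling moved the median of all genes to −0.16 between pXEN cells and nESCs. With the line number as a replicate block, 3 factors were lower in pXEN cells than in pESCs, because GATA3 had a log2 fold change of −1.85 (edgeR, adjusted p = 0.0533). The numbers do not pair the lines, with correlations of the deviations of 0.02, 0.03 and −0.01. Counts of called genes in the other lists stayed within 1.5 times in 385 of 432 cases. With 2 or 3 lines per type and several factors under 20 counts per library, moderate differences of low genes could not be resolved.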
